A study of Mus musculus with 10 samples.

Results

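Interferon-stimulated genes are the genes that cells switch on when interferon binds its receptor. The genes described here are Ifit1, Ifit3, Isg15, Irf7, Ifi27l2b, Iigp1, Gbp2, Cxcl9 and Slfn4, a set of 9 that covers targets of type I and of type II interferon. A probe set was used only where the array annotation gave it exactly 1 gene symbol. By that rule 8 of the 9 genes were represented, by 11 of the 45101 probe sets on the array, out of 18193 genes represented in all. The probe set for Isg15, a ubiquitin-like protein that is attached to other proteins during an interferon response, also named another gene, so no value is given for Isg15.

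The samples came from male ICR mice, an outbred strain, kept 1 to a cage under specific-pathogen-free conditions. From 8 months of age until 28 months the control group of 9 mice ate the AIN-93 diet, and the yogurt group of 10 mice ate AIN-93 containing 1 to 2% LB81 yogurt, a milk fermented with lactic acid bacteria. RNA from jejunum, ileum, distal colon, liver and spleen was pooled in equal amounts over the mice of a group, and each pool was measured once on an Affymetrix mouse expression array, which gives 10 arrays in all. The comparisons addressed are how the level of each gene differed between tissues, and how it differed between the diets within a tissue.

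Values are on a log2 scale, so a difference of 1 is a 2-fold difference. The floor, below which a signal was treated as not above background, was the median of each array and lay between 5.42 and 5.49. Over all probe sets, the Spearman correlation was 0.991 to 0.994 between the arrays of a tissue and 0.858 to 0.978 between tissues. All the matched defining genes of each tissue were above the floor on both arrays of that tissue, 6 for jejunum, 5 for ileum, 6 for distal colon, 7 for liver and 7 for spleen. For Gapdh, the signal of its 3' probe set exceeded that of its 5' probe set, which rises as RNA degrades, by a log2 of 0.05 to 0.23 on the gut arrays, 0.86 to 0.98 in liver and 1.01 to 1.29 in spleen. For actin the same difference was 0.66 to 1.01 in the gut, 1.82 to 2.01 in liver and 1.01 to 1.09 in spleen. The part of RNA quality in the tissue differences below was not tested.

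Type I interferons (interferon alpha and beta) signal through the receptor chains Ifnar1 and Ifnar2, and the interferon-stimulated response element in the promoters of their targets is then bound. Type II interferon (interferon gamma, from T cells and natural killer cells) signals through Ifngr1 and Ifngr2 and acts on gamma-activated sites. Interferon gamma also induces Irf1, which can bind the interferon-stimulated response element. In the gut, a low interferon tone maintained by commensal microbes is known to keep antiviral genes ready.

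The promoter sequences of 3 members are shown because they carry the same response element letters, while the order of tissues by level differed. Liver was the highest tissue by mean for Ifit1 and Ifit3, and spleen for Gbp2. The promoter windows, from 250 bases before to 50 after the annotated start, were those of RefSeq on GRCm38.p6. Capitals mark each match to the response element, searched as GAAANNGAAA on both strands, which reads TTTCNNTTTC on the strand of these genes. All stretches are on the plus strand and are given 5' to 3'.
Ifit1, chr19:34640765-34640833: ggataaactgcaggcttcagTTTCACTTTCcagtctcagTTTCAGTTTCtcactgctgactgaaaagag
Ifit3, chr19:34583353-34583436: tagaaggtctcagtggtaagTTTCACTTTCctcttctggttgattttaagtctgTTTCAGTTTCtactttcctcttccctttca
Gbp2, chr3:142620584-142620633: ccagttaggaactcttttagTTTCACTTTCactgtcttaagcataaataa

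The letters TTTCACTTTC occurred in all 3 promoters, and Ifit1 and Ifit3 each also held TTTCAGTTTC. In Ifit1 the matches began 104 and 85 bases upstream of the start, in Ifit3 156 and 122 bases upstream, and in Gbp2 59 bases upstream. Of the 9 genes, 7 had a promoter in the RefSeq table, and 4 of these 7 held a match (Ifit1, Ifit3, Gbp2 and Isg15), against 3.44% of all 32851 promoter windows. The gamma-activated site, searched as TTCNNNGAA, which is its own reverse complement, was in 8.30% of all windows and in 0 of the 7. The response element letters were also present in 18 of 45 promoters of other type I targets (40%), in 13 of 24 of other type II targets (54.2%) and in 0 of 5 of interferon receptors. A match is a description of the letters in this window and does not show that a factor was bound there.

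**Figure D1:**
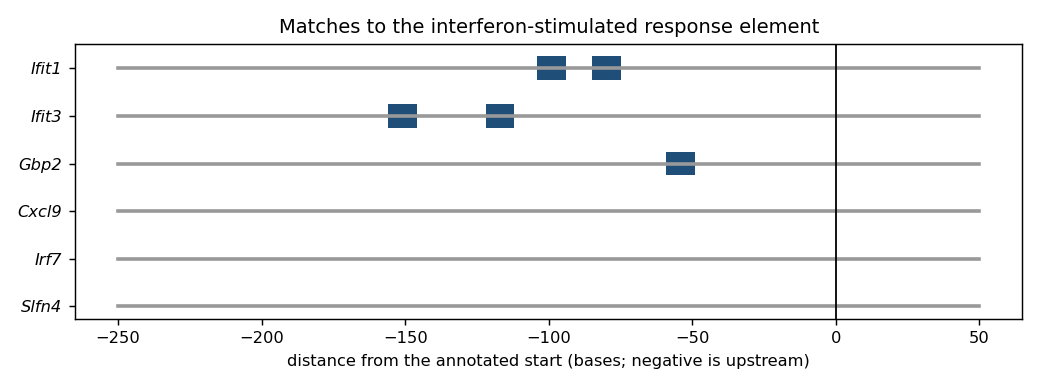
Positions of the matches to the interferon-stimulated response element (blue blocks) in the promoter windows of 6 measured members, by distance in bases from the annotated start (vertical line). Ifit1 and Ifit3 have 2 matches each and Gbp2 has 1, all upstream, and the windows of Cxcl9, Irf7 and Slfn4 have none.

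The members did not share 1 tissue pattern. Iigp1 was highest in liver, Gbp2 and Cxcl9 in spleen, Ifi27l2b in jejunum, and Slfn4 in distal colon and spleen, while Ifit1, Ifit3 and Irf7 varied least between tissues. Tissues were compared with limma across 13604 genes, with diet as a covariate, and a pair was called at a Benjamini-Hochberg adjusted p below 0.05 and a difference of at least 2-fold. Of 80 comparisons of a member between 2 tissues, 37 were called (46.2%), against 22.8% of all comparisons of a gene between 2 tissues. Liver and spleen differed for 6 of the 8 members (33.2% of all genes), 3 higher in each. Jejunum and spleen also differed for 6 (28.4% of all genes), and jejunum and ileum for 0 of 8 (4.94% of all genes), where 4 of the 8 had an adjusted p below 0.05 (5 unadjusted) but differed by less than 2-fold. No other tool was run. These p-values measure the spread over arrays of pooled RNA and not the spread between mice. In whole tissue, more cells of a type and more RNA per cell cannot be told apart.

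**Figure D2:**
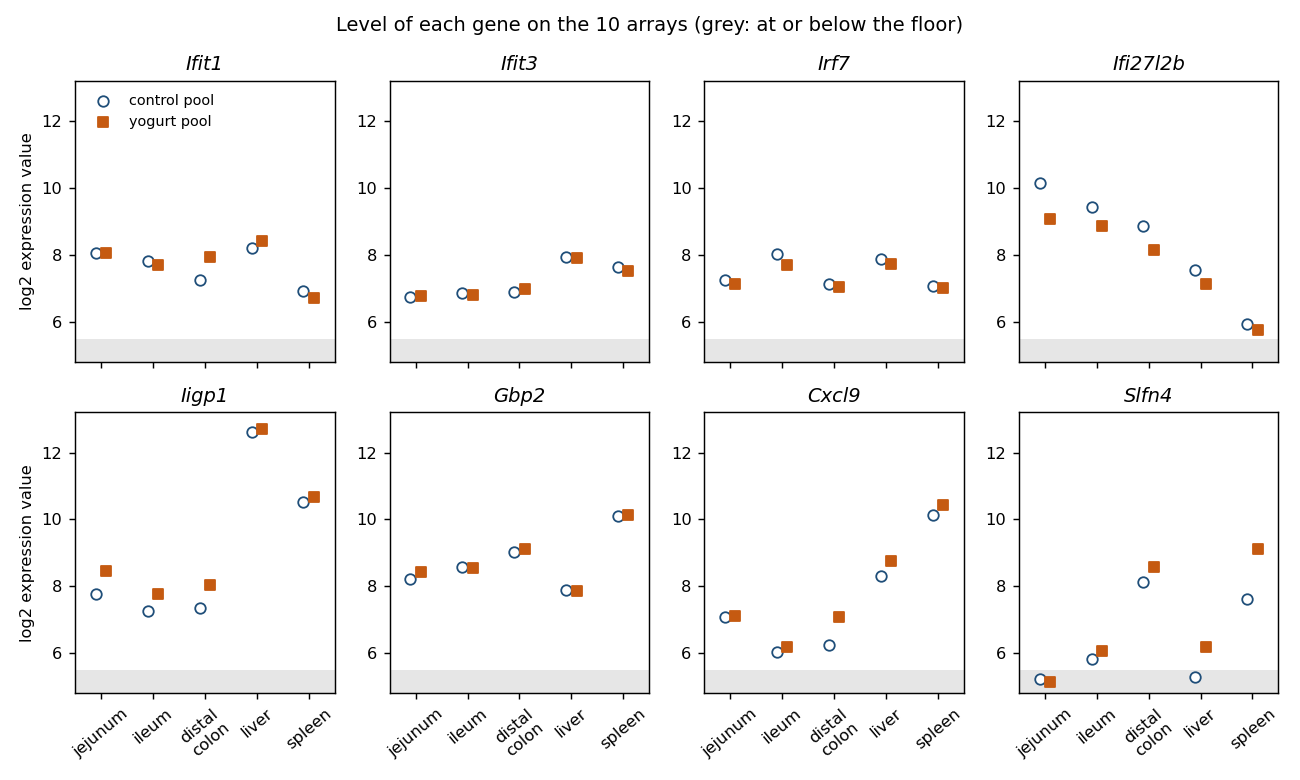
Log2 expression value of each measured member on each of the 10 arrays, by tissue, with control pools as open circles and yogurt pools as filled squares, and with the range at or below the floor in grey. The vertical scale is shared, but levels should be read within a gene, since probe sets differ in their response. Liver stands highest for Iigp1, spleen for Cxcl9 and Gbp2, and jejunum for Ifi27l2b.

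Ifit1 encodes a protein that binds foreign RNA and blocks its translation. Its level, control then yogurt, was 8.07 and 8.07 in jejunum, 7.82 and 7.69 in ileum, 7.26 and 7.94 in distal colon, 8.20 and 8.41 in liver, and 6.91 and 6.72 in spleen. Spleen was the lowest tissue on both diets. Liver exceeded spleen by 1.49 (SE 0.19, limma adjusted p = 0.000159) and jejunum exceeded spleen by 1.25 (SE 0.19, limma adjusted p = 0.00049), and the other 8 pairs of tissues were not called. Ileum and distal colon, neighbours in the order of means at 7.76 and 7.60, differed by 0.16 (SE 0.19).

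Ifit3, a partner of Ifit1 in the same complex, had a different order. Its level lay between 6.74 and 6.97 on the 6 gut arrays, at 7.95 and 7.91 in liver and at 7.64 and 7.53 in spleen. The gut, liver and spleen values did not overlap. Liver exceeded jejunum by 2.25-fold (limma adjusted p = 3.94e-06) and ileum by 2.14-fold (limma adjusted p = 5.36e-06), but both fell below 2-fold, to log2 differences of -0.97 and -0.92 for gut minus liver, when a pseudocount of 32 replaced the floor. Over the 10 arrays, which share tissues and mice, the Pearson correlation of Ifit3 with Ifit1 was -0.03 and with Iigp1 0.97.

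Irf7, the transcription factor that amplifies type I interferon production, differed least. Its level was 8.03 and 7.69 in ileum, 7.87 and 7.72 in liver, 7.26 and 7.13 in jejunum, 7.14 and 7.03 in distal colon, and 7.08 and 7.01 in spleen. Ileum and liver stood above the other 3 tissues on each diet. No pair reached 2-fold, so 0 of 10 were called, although ileum exceeded spleen by 1.76-fold with a limma adjusted p of 5.35e-05 and 6 pairs had an unadjusted p below 0.05.

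Ifi27l2b belongs to the Ifi27 family of small hydrophobic proteins encoded by interferon-inducible genes. Its level was 10.16 on control and 9.07 on yogurt diet in jejunum, 9.45 and 8.87 in ileum, 8.88 and 8.14 in distal colon, 7.55 and 7.13 in liver, and 5.95 and 5.76 in spleen. The mean level thus went down in the order jejunum, ileum, distal colon, liver and spleen. Jejunum exceeded spleen by 3.76 (13.6-fold, SE 0.18, limma adjusted p = 5.52e-07), and 8 of the 10 pairs were called. Of these, jejunum with distal colon was 1.11, and 0.81 without the jejunum control array, below 2-fold. The pairs not called were jejunum with ileum (0.46, limma adjusted p = 0.0905) and ileum with distal colon (0.65, limma adjusted p = 0.0183). Its relative Ifi27l2a had the opposite extreme, at 10.996 and 10.82 in spleen and between 8.48 and 9.18 on the other 8 arrays.

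Iigp1 encodes an immunity-related GTPase that attacks the vacuoles in which intracellular pathogens live. Its level was 12.62 and 12.69 in liver and 10.53 and 10.66 in spleen, against 7.28 to 8.45 on the gut arrays. All liver and spleen values lay above all gut values. Liver exceeded ileum by 5.13 (SE 0.16, limma adjusted p = 3.75e-08) and spleen by 2.07 (4.19-fold, limma adjusted p = 6.31e-06), and the 7 pairs called were all those that involve liver or spleen. The second probe set of Iigp1 followed the first over the 10 arrays (Pearson r = 0.9992).

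Gbp2, a guanylate-binding protein that acts on the same vacuoles, was highest in spleen at 10.11 and 10.13 and lowest in liver at 7.88 and 7.86. It was 8.22 and 8.44 in jejunum, 8.58 and 8.55 in ileum, and 9.03 and 9.12 in distal colon. Spleen exceeded liver by 2.25 (4.75-fold, SE 0.08, limma adjusted p = 4.38e-08), and distal colon exceeded liver by 2.30-fold (limma adjusted p = 2.18e-06). Iigp1 and Gbp2 thus stood at opposite ends in liver. The Pearson correlation of Gbp2 with Ifit1, whose promoter holds the same letters, was -0.93 over the 10 arrays.

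Cxcl9, a chemokine that draws T cells bearing the receptor Cxcr3, was highest in spleen at 10.14 and 10.44 and next in liver at 8.31 and 8.76. Its level was 7.10 and 7.13 in jejunum, 6.05 and 6.18 in ileum, and 6.25 and 7.09 in distal colon. Liver and spleen lay above the gut on every array. Spleen exceeded ileum by 4.18 (18.1-fold, SE 0.18, limma adjusted p = 2.06e-07), and 7 of 10 pairs were called. The summed level of 15 T and natural killer cell genes was 5244 and 5258 in spleen and 2472 and 2679 in jejunum. It was 1032 and 1238 in ileum, 930 and 1011 in distal colon, and 680 and 713 in liver. Liver, next after spleen for Cxcl9, was the lowest tissue by this sum. There 9 of the 15 genes were at or below the floor on each array, against 1 on each spleen array. Gzma, at 10.32 and 10.42, was the highest of the 15 in jejunum. The part of these genes' cells in the Cxcl9 levels was not tested.

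Slfn4, a Schlafen family member known from myeloid cells, was the only member whose representing probe set was below the floor on any array. It was at 5.22 and 5.13 in jejunum, below the floor on both diets, and at 5.30 in liver of control mice, also below it. Its level was 5.84 and 6.06 in ileum, 6.18 in liver of yogurt-fed mice, 8.13 and 8.57 in distal colon, and 7.62 and 9.11 in spleen. Distal colon and spleen stood apart from the other 3 tissues and differed from each other by 0.01 (SE 0.31, limma adjusted p = 1.0). Spleen exceeded jejunum by at least 7.41-fold (limma adjusted p = 5.27e-05), a lower bound because jejunum was set to the floor, and exceeded ileum by 5.34-fold (limma adjusted p = 0.000151). The 11 neutrophil genes measured beside it did not share this order. All 11 were called higher in spleen than in distal colon (9.96% of all genes were). Their median log2 difference was -4.61 for distal colon minus spleen.

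The genes most like each member over the 10 arrays, by Pearson correlation across 13604 genes, were Nfxl1 for Ifit1 (0.98), Zmat1 for Ifit3 (1.00), Acot4 for Irf7 (0.98), Rhot2 for Ifi27l2b (0.99), Tmed5 for Iigp1 (0.99), Rassf2 for Gbp2 (1.00), Tmem14c for Cxcl9 (0.99) and F13a1 for Slfn4 (0.96). Next in order stood Shfl for Iigp1 (0.99), a gene whose product restrains viral RNA, and Stk4 for Gbp2 (1.00). With 5 tissues of 2 arrays each, such correlations are set mainly by the tissues.

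Between the diets, each tissue had 1 array per diet, so a diet ratio within a tissue had no replicate and no test. Members with a ratio of at least 1.5-fold were Iigp1 (higher on yogurt) and Ifi27l2b (lower) in jejunum, Cxcl9, Iigp1 and Ifit1 (higher) and Ifi27l2b (lower) in distal colon, and Slfn4 (higher) in liver and spleen. In jejunum, where Slfn4 was not measured, this was 1 of 7 members higher and 1 lower, against 0.635% of all measured genes higher and 0.244% lower. In distal colon it was 3 of 8 higher and 1 lower, against 0.946% and 0.0889%. In ileum 0 of 8 were higher (0.211% of all genes) and 0 lower (0.293%), in liver 1 of 8 higher (0.501%) and 0 lower (0.337%), and in spleen 1 of 8 higher (0.631%) and 0 lower (1.09%). Their median ratio, on the log2 scale, was 0.03 in jejunum, -0.05 in ileum, 0.27 in distal colon, 0.02 in liver and -0.03 in spleen, beside -0.01, -0.04, -0.01, -0.03 and -0.05 over all measured genes. The members, and the gene lists below, were chosen with earlier results of these data known. Counts set beside the share of all genes are therefore descriptions and do not test a set.

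**Figure D3:**
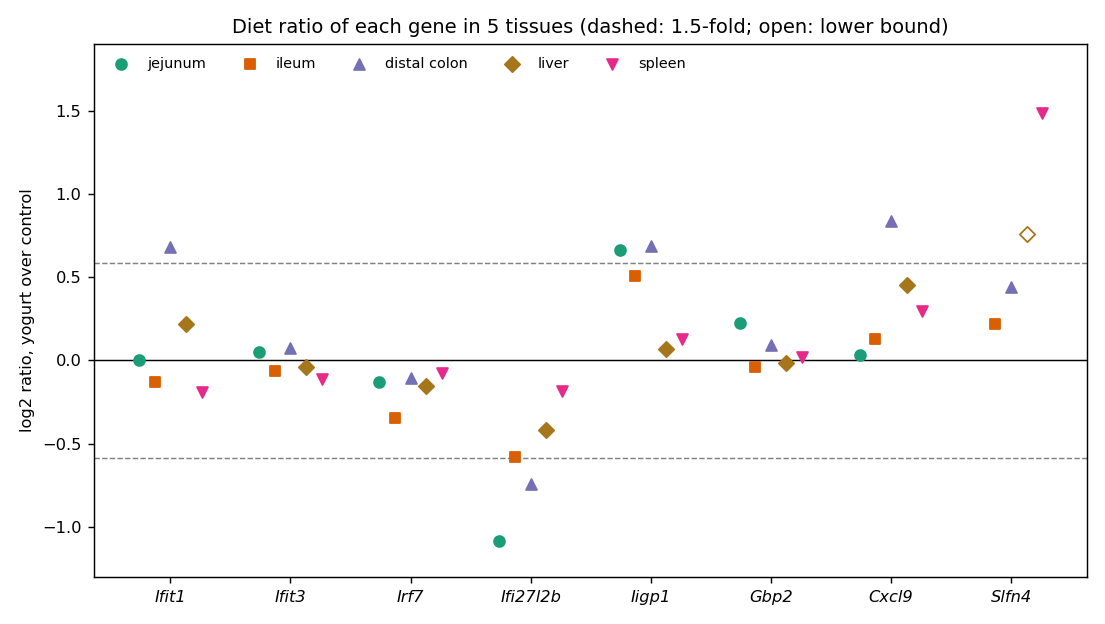
Log2 ratio of yogurt over control for each measured member in each tissue, 1 pooled array per diet, so without error bars. Dashed lines mark 1.5-fold, and the open symbol for Slfn4 in liver is a lower bound because the control value was below the floor. Ifi27l2b lies below 0 in all 5 tissues, Iigp1 and Cxcl9 lie above 0 in all 5, and Slfn4 in spleen has the largest ratio.

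Ifi27l2b had the largest ratio below 1 among the members in every tissue but spleen. It was lower on the yogurt diet by 2.12-fold in jejunum (log2 ratio -1.09), 1.495-fold in ileum (-0.58, just under the 1.5-fold line), 1.67-fold in distal colon (-0.74), 1.33-fold in liver (-0.42) and 1.14-fold in spleen (-0.19). Among measured genes it ranked 3 from the lowest of 12279 in jejunum, 38 of 12303 in ileum and 7 of 12369 in distal colon. At least 1.5-fold lower in 2 or more of the 3 gut segments were 6 of 11622 genes (0.0516%), Ifi27l2b among them. The family members measured with it did not show ratios of this size: Ifi27l2a was at -0.01, -0.00 and 0.22 and Ifi27 at -0.20, -0.05 and -0.19 in jejunum, ileum and distal colon. Ifi27l2b and Ifi27l2a are close in sequence, and whether its probe set also detects a relative was not tested.

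The jejunum value stands beside other differences between the same 2 arrays. All 10 measured genes of the exocrine pancreas, which are not jejunal products, were at least 2-fold higher on the yogurt array, as were 40 of all 12279 measured genes. Their summed level was 24408 on control and 65524 on yogurt diet. The summed level of 9 epithelial genes was 44375 and 43242. The summed pancreatic level was 1058 and 1104 in ileum, and 535 and 525 in distal colon. The part of these genes in the Ifi27l2b ratios was not tested.

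Iigp1 was higher on the yogurt diet in all 3 gut segments, by 1.58-fold in jejunum (log2 ratio 0.66), 1.42-fold in ileum (0.51) and 1.61-fold in distal colon (0.69). In liver and spleen, where its level was far higher, the ratios were 0.07 and 0.13. At least 1.5-fold higher in 2 or more gut segments were 14 of 11622 genes (0.12%), Iigp1 among them. Its second probe set gave 0.61 in jejunum and 0.66 in distal colon, but 0.21 in ileum. Gbp2 had ratios of 0.22, -0.04 and 0.10 in the 3 gut segments, and those in liver and spleen were -0.02 and 0.02. The second probe set of Gbp2 gave 0.20 in jejunum, 0.09 in ileum, -0.06 in distal colon, 0.05 in liver and 0.17 in spleen. The sign thus depended on the probe set in ileum, distal colon and liver.

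Cxcl9 was 1.79-fold higher on the yogurt array in distal colon (log2 ratio 0.84), and its ratios were 0.45 in liver, 0.30 in spleen, 0.13 in ileum and 0.03 in jejunum. The distal colon value rests on a control level of 6.25, close to the floor, and it was 0.37 where each array's floor was raised to its 65th percentile and 0.40 where both probe sets were averaged. Its second probe set was not above the floor on either distal colon array. In distal colon 8 of 10 measured T and natural killer cell genes were higher on the yogurt array (45.3% of all genes were), none by 1.5-fold, and their list's summed level was 930 and 1011. On the same arrays 5 of 5 measured adipocyte genes were at least 1.5-fold higher (0.946% of all genes were), and their list's summed level was 1888 and 4520. Smooth muscle genes were lower for 8 of 8, as were 6760 of all 12369 measured genes, with a summed level of 29766 and 25516. The part of these genes in the Cxcl9, Iigp1 and Ifit1 ratios was not tested.

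Ifit1 was 1.60-fold higher on the yogurt array in distal colon (log2 ratio 0.68). Elsewhere its ratio was 0.22 in liver, -0.13 in ileum and -0.19 in spleen, and the jejunum values were equal to 2 decimals. Ifit3, whose promoter shares both matches, had ratios between -0.11 and 0.07 in the 5 tissues, with 0.07 in distal colon. Irf7 was lower on the yogurt array in all 5 tissues, with ratios of -0.34 in ileum, -0.15 in liver, -0.13 in jejunum, -0.10 in distal colon and -0.07 in spleen. Lower in all 5 tissues were 11.3% of the 10389 genes measured in all 5.

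Slfn4 in spleen had the largest diet ratio of any member. Its level of 7.62 on control and 9.11 on yogurt diet is a 2.80-fold difference (log2 ratio 1.48), which ranked 7 from the highest of 11882 measured genes. In liver it was at least 1.69-fold higher, with the control value below the floor, and its ratio was 0.44 in distal colon and 0.22 in ileum. Schlafen relatives on the spleen arrays were at 0.03 (Slfn2), -0.18 (Slfn5), -0.20 (Slfn8) and -0.26 (Slfn9).

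Neutrophil genes were higher on the same arrays. In spleen all 11 measured neutrophil genes were higher on the yogurt array, 9 of them by at least 1.5-fold (38.5% and 0.631% of all genes), with a median log2 ratio of 0.95 and a summed level of 17705 on control and 31143 on yogurt diet. Mpo, the myeloperoxidase of their granules, was at 8.89 and 10.57, and Ltf, lactoferrin, at 9.44 and 10.76. In liver all 11 were higher too (42.2% of all genes), with a summed level of 1129 and 2178. In the gut the summed level was 340 to 449 on control and 433 to 685 on yogurt arrays, with 5 to 9 of the 11 genes at or below the floor. Of the macrophage and monocyte genes, 1 of 12 was higher in spleen and 11 were lower, as were 7308 of all 11882 measured genes. The summed level of their list was 26988 and 24420. The part of neutrophil genes in the Slfn4 ratio was not tested.

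**Figure D4:**
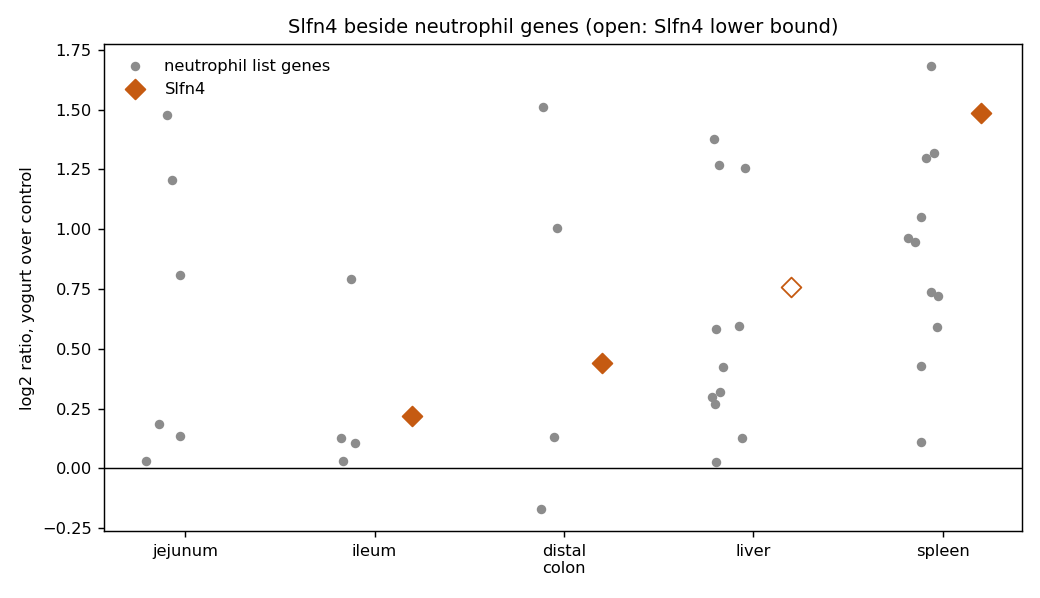
Log2 ratio of yogurt over control for Slfn4 (diamonds) and for each measured gene of the neutrophil list (grey points) in 5 tissues, with an open diamond where the Slfn4 ratio is a lower bound. In spleen Slfn4 at 1.48 lies within the range of the 11 neutrophil genes, 0.11 to 1.68, and it has no value in jejunum, where both arrays were below the floor.

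Over the 5 tissues together, no diet difference was called. In limma with tissue as a covariate, 0 of 8 members and 0 of 13604 genes (0%) had an adjusted p below 0.05, while 5 members and 1445 genes (10.6%) had an unadjusted p below 0.05. The mean log2 ratio was -0.60 (SD 0.34, n = 5 tissues, limma adjusted p = 0.251) for Ifi27l2b. It was lower in 5 of 5 tissues, as were 11.3% of the genes measured in all 5. The mean was 0.41 (SD 0.30, limma adjusted p = 0.338) for Iigp1 and 0.35 (SD 0.32, limma adjusted p = 0.399) for Cxcl9, each higher in 5 of 5 tissues, as were 2.52% of genes. For Irf7 the mean was -0.16 (SD 0.11, limma adjusted p = 0.421) and for Slfn4 0.58 (SD 0.58, limma adjusted p = 0.419), with the jejunum of Slfn4 set to the floor on both arrays. An exact two-sided permutation of the diet labels within tissues gave p = 0.062 for Ifi27l2b, Iigp1, Cxcl9 and Irf7, which is the smallest value that 5 tissues allow. The 5 tissues came from the same mice, so they are not 5 independent replicates of the diet, and neither test measures the spread between mice. Ifit1, Ifit3 and Gbp2 had mean ratios of 0.12, -0.02 and 0.06 with directions that differed between tissues.

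The interferons themselves were almost all below the floor. Of 9 interferon genes with a probe set, Ifna1 was above the floor on 5 arrays, at most 6.04, and Ifng only in spleen of control mice, at 5.60, with 5.23 on the yogurt diet. The other 7, Ifnb1 among them, were below the floor on all 10 arrays. The receptor chains were well above it: Ifnar2 stood at 10.35 and 10.30 in liver and Ifngr1 at 10.83 and 10.77 in distal colon. Diet ratios of the 6 receptor genes lay between -0.31 and 0.17. Ifnlr1, the receptor chain of type III interferon, was above the floor on the 6 gut arrays, at 6.37 to 6.81, and below it in liver and spleen.

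Most other type I targets were higher on the yogurt array in jejunum, distal colon and liver, with small ratios. In jejunum 35 of 47 measured were higher (46.5% of all genes were), with a median log2 ratio of 0.08. In distal colon 33 of 45 were higher (45.3% of all genes), with a median of 0.13, in ileum 18 of 44 (37.9%), in liver 29 of 46 (42.2%) and in spleen 17 of 48 (38.5%). At least 1.5-fold were Trim34a in jejunum (0.63), a gene of the tripartite motif family, and Ddx60 in ileum (-0.82), a helicase linked to antiviral sensing. The antiviral Rsad2 had its highest level in spleen, at 12.32 and 12.34, with a ratio of 0.02. Mx1 was below the floor on all 10 arrays.

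Most other type II targets were higher on the yogurt array in the same 3 tissues. In jejunum 23 of 25 measured were higher on the yogurt array (46.5% of all genes), with a median log2 ratio of 0.23, in distal colon 21 of 25 (45.3%) with 0.12, and in liver 20 of 25 (42.2%) with 0.09. In ileum 13 of 26 were higher (37.9%), with a median of 0.02, and in spleen 10 of 26 (38.5%), with -0.02. Beside them in jejunum, 10 of 11 macrophage and monocyte genes (summed level 8445 and 9067), 6 of 6 neutrophil genes (449 and 685) and the pancreatic genes given above were also higher on the yogurt array, and their part in these counts was not tested. Igtp, a GTPase of the same family as Iigp1, was at 8.34 and 9.11 in jejunum (0.77), Irgm2 at 7.31 and 7.86 (0.56), and Nlrc5, the transactivator of class I antigen presentation, at least 0.73 higher with its control value below the floor. Ido1, which degrades tryptophan, was at 7.52 and 6.62 in ileum (-0.90) and at least 0.70 higher in distal colon, again from a control value below the floor. Gbp2b, a relative of Gbp2, was at 5.70 and 6.31 in ileum (0.62), and Cxcl11, which shares its receptor with Cxcl9, was at 6.11 and 5.49 in liver (-0.62). Ccl5, a chemokine, was at 8.18 and 8.81 in distal colon (0.63). Irf1, which is on this list and on that of signal transduction genes, had ratios of 0.25 in jejunum and 0.36 in distal colon.

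**Figure D5:**
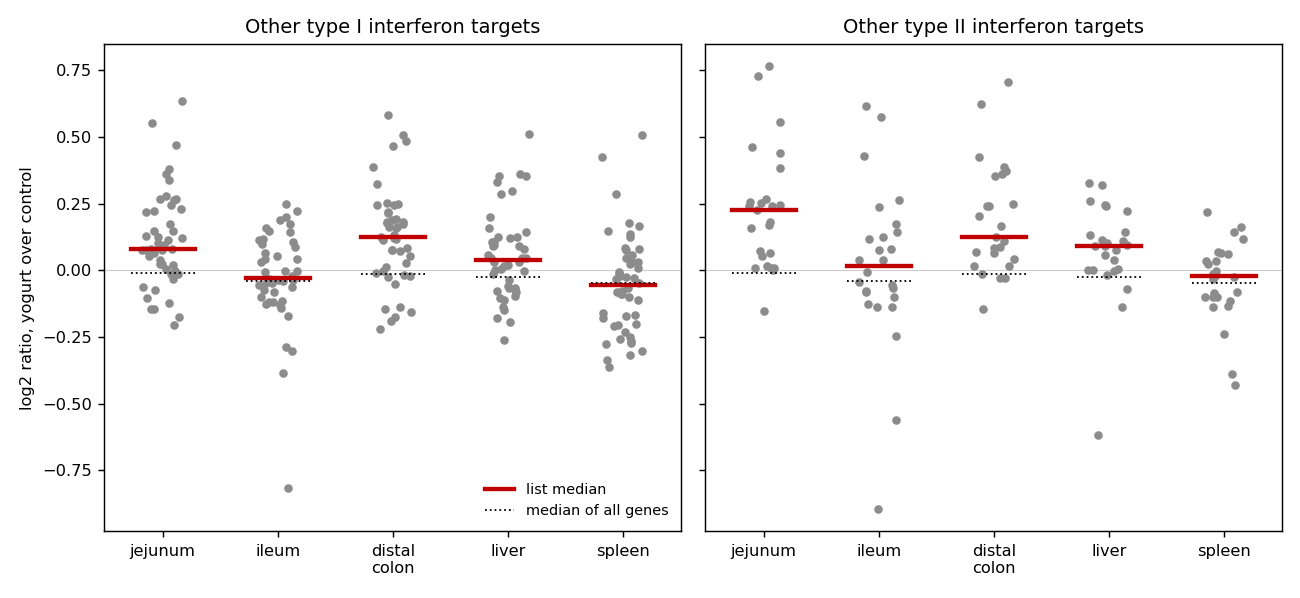
Log2 ratio of yogurt over control for each measured gene of the lists of other type I (left) and other type II (right) interferon targets in 5 tissues, with the list median in red and the median of all measured genes dotted. The type II median in jejunum, 0.23, lies farthest above its dotted line, and in spleen both medians lie close to it.

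In the fit over all tissues 0 of 48 other type I and 0 of 27 other type II targets were called for diet by limma, with 7 of each at an unadjusted p below 0.05. Tissue differences were called often for both lists. Of the type II targets 18 of 27 were higher in spleen than in ileum and 2 lower, against 12.5% and 17.1% of all genes. Of the other type I targets 20 of 48 were higher in spleen than in ileum and 4 lower. Spleen also exceeded distal colon for 16 of 27 type II and 17 of 48 other type I targets (9.96% of all genes). Of the signal transduction genes 7 of 17 were higher in spleen than in ileum and none lower, and Irf8, a transcription factor of macrophages, B cells and dendritic cells, was at 11.02 and 10.73 in spleen against 7.07 to 9.34 elsewhere.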

How the data were processed

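Expression was measured in 10 pooled RNA samples, 1 per tissue and diet, with 100 ng of RNA each per the labels' protocols. The authors deposited log2 expression values per probe set. MAS5 and affy are named in the submitters' processing notes, without versions, and neither their roles nor any scaling is stated in the sources used here. The values were used without further scaling. Array controls (64 probe sets) were left out, 34945 of the other 45037 probe sets had 1 gene symbol, 932 had several and 9160 had none. The probe set with the highest mean represented a gene. Values under each array's 50th percentile were raised to it, and genes above it on at least 1 of a tissue's 2 arrays count as measured there.

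Diet ratios within a tissue are differences of log2 values with no test. Across arrays limma 3.58.1 (lmFit, eBayes with trend, R 4.3.3) was fitted with tissue and diet to 13604 genes above the floor on at least 2 arrays, with 4 residual degrees of freedom, and p-values were adjusted by Benjamini-Hochberg over all genes. The fit was also run on simulated data with independent noise and only the added differences, without the 2-fold rule. An adjusted p below 0.05 was reached by 90% of 100 log2 differences of 1 between liver and spleen. It was reached by 76% of 100 diet differences of 0.5 over the 5 tissues. False calls numbered 11 and 8. Real data hold other differences, so these shares may not carry over to the calls above. The number of arrays limits the precision. Members and gene lists were chosen with earlier results of these data known. All members are named with every probe set, and from each list the genes with the largest diet ratios, the highest levels or a value that a sentence on the list needs, with close relatives of members. Alternatives changed the floor, the pseudocount, the normalization, the choice of probe set, the filter, the covariates and the arrays included.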

Additional observations from a re-analysis of the deposited data

How the results depend on the processing

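Each tissue and diet had 1 pooled array, so no further pairing by replicate was possible. Tissue as a covariate, and the permutation within tissues, already compared the diets within each tissue. The number of members at least 1.5-fold higher in liver was 1, and was 0 under a floor raised to the 65th percentile, and again 0 where a pseudocount of 32 replaced the floor, since Slfn4 was then not measured there or had a log2 ratio of 0.55. The other 150 values of counts and medians stayed within 1.5 times or 1 SD. That rule let the number of members at least 1.5-fold higher in distal colon go from 3 to 2, with the floor at the 65th percentile. Medians near 0 changed sign: over the alternatives that of liver ranged from -0.02 to 0.07 and that of spleen from -0.03 to 0.03. Of 307 ratios of single members 4 moved, all of Cxcl9 or Slfn4: besides those given above, Cxcl9 in jejunum was 0.25 with the mean of both probe sets. Ifit1 in distal colon was 0.58, just under 1.5-fold, with a pseudocount. Of 1520 comparisons of a member between tissues, 4 calls were lost and 9 gained, and no called difference changed direction. Differences that were not called could change sign, as for Slfn4 between distal colon and spleen (-0.58 to 0.55). The gained ones were Cxcl9 in jejunum against ileum, Ifit1 in ileum and distal colon against spleen and in distal colon against liver, and Ifit3 in distal colon against liver, 8 of them on leaving out 1 array. The lost ones were Ifit3 in jejunum and ileum against liver, above, Ifi27l2b in liver against spleen (0.80, floor at the 65th percentile) and Ifi27l2b in jejunum against distal colon (0.81, without the jejunum control array). No diet difference over the tissues was called under any alternative, and the adjusted p of Ifi27l2b ranged from 0.154 to 0.760. Pools of RNA hide the spread between mice, and signals near the floor, as for Slfn4 in liver and Cxcl9 in distal colon, give ratios that depend on it.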

Other observations

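Sensors of foreign nucleic acid, which start interferon production, had small diet ratios. None of 14 measured in jejunum or ileum, or of 15 in distal colon, liver or spleen, had a ratio of 1.5-fold, and the largest were those of Zbp1 in liver (0.46) and Tlr3 in spleen (-0.41). Plasmacytoid dendritic cells are known as strong producers of type I interferon. In spleen 6 of 6 of their listed genes were lower on the yogurt array, as were 7308 of all 11882 measured genes. Their median log2 ratio was -0.34, and Siglech, a surface lectin of these cells, was at 7.05 and 6.67. Elsewhere 3 of 4 were higher in jejunum (46.5% of all genes were), with a median of 0.26, and 4 of 6 in ileum (37.9%), with 0.04. In distal colon 2 of 5 were higher (45.3%), with a median of -0.03, and in liver 2 of 3 (42.2%), with 0.19. Ccr9, also on T cells, was at 7.51 and 6.89 in spleen and at 7.41 and 7.87 in jejunum. Klk1 had the largest spleen ratio of this list (-0.70, at 7.69 and 6.99). Its level was far higher on the gut arrays, at 11.40 to 13.41, so it was not particular to these cells. Usp18, which removes Isg15 from proteins, was at 7.90 and 8.22 in spleen and at 6.23 and 6.51 in distal colon.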
